A study of Mus musculus with 8 samples.

Results

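The insulin-like growth factor (IGF) system was followed here through 9 genes, chosen by symbol from the 27998 genes of the count tables: the ligand *Igf1*, the receptors *Igf1r* and *Igf2r*, and the binding proteins *Igfbp2*, *Igfbp3*, *Igfbp4*, *Igfbp5*, *Igfbp6* and *Igfbp7*. Of these, 8 reached 20 UMIs (unique molecular identifiers, that is, counted RNA molecules) in at least 1 cell class and *Igfbp2* did not. The cells came from left ventricles of male C57BL/6 mice, 10 to 12 weeks old, with no genotype given, after myocardial ischemia-reperfusion (IR) or a sham operation. In IR the left coronary artery was tied for 30 min and then released, and sham mice had the same surgery without the tie. The tissue of 3 hearts was pooled for each sample and single cells were profiled by droplet RNA sequencing. The labels list 4 samples titled 0 h and 4 titled 6 h, and also say that hearts were taken 6 h after either operation. The counts came as 1 table for 0 h, called sham here, and 1 table for 6 h, called IR here. No map from cells to samples was found in the barcodes, so each condition is 1 library, no difference between conditions could be tested, and every interval below covers counting error alone.

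IGF-1 is a secreted growth factor that acts through the tyrosine kinase receptor encoded by *Igf1r*. The receptor encoded by *Igf2r* binds IGF-2 and carries it, with mannose 6-phosphate tagged enzymes, to lysosomes, without a kinase of its own. In tissue fluid most IGF is held by binding proteins, which can shield it from the receptor or release it when proteases such as PAPP-A cut them. In the heart, macrophages and fibroblasts are known local sources of IGF-1, and cardiomyocytes, fibroblasts and vessel wall cells respond to it.

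Cells were classed by UMIs of marker genes, none of which is in the set of 9. Each class was led by markers of its own, which the class rule itself brings about. The platelet gene *Pf4* was also among the leading genes of macrophage/monocyte-like cells. The sham library held 11620 barcodes with a median of 4599.5 UMIs, and the IR library 8539 with a median of 6244. Of the kept cells, 90% in sham and 93.2% in IR received a class, and 97.3% of the classed cells lay in a cluster of their own class. Clusters were named by their most common class and built with the marker genes left in, so that share is no independent check. Mixed cells, which carried markers of more than 1 class, made up 7.21% of kept sham cells and 2.91% of kept IR cells and were left out, which removes only part of the doublets. The barcodes of 30 cells occurred in both libraries. The classes compared were macrophage/monocyte-like (3671 cells in sham, 2253 in IR), neutrophil-like (267 and 2381), fibroblast-like (3419 and 1654), mural-like, that is, pericytes and smooth muscle (796 and 187), endothelial-like (263 and 101), B cell-like (1150 and 697), T cell-like (359 and 263) and NK cell-like (215 and 66). Cardiomyocyte-like cells (34 and 47) were too few, so the myocytes that IGF-1 is best known to act on were not analysed here. RNA recovered per cell differed strongly between the libraries. The median was 5192 UMIs in sham and 13771 in IR for fibroblast-like cells, 4912 and 11439 for macrophage/monocyte-like cells, and 1946 and 5428 for mural-like cells. Levels are therefore given as CPM, UMIs of the gene per 1000000 UMIs of the class, and as UMIs per cell beside it for many of the main values, since several CPM differences turn direction per cell. Depth and RNA content per cell cannot be told apart, and fewer positive cells and less RNA per cell cannot be told apart in a class total. B cell-like cells gave a rough reference for free RNA, since a gene of stromal cells should be low in them. Their median depth was 2324 UMIs in sham and 3443 in IR, so on CPM free RNA can weigh more in them than in deeper classes. A level below theirs on CPM is therefore no proof of background, the less so for genes not confined to stromal cells.

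The promoters of the 4 genes that differed by 2-fold or more in fibroblast-like cells and whose products are secreted are shown, because their levels differed in opposite directions. *Igf1* gives the ligand, and *Igfbp3*, *Igfbp4* and *Igfbp5* give proteins that hold it. Each is the RefSeq window of 300 bases from 250 before to 50 after the start (GRCm38.p6, 5′ to 3′ on the gene's strand). The windows are chr10:87860861-87861160 on the plus strand for *Igf1*, chr11:7213874-7214173 on the minus strand for *Igfbp3*, chr11:99040994-99041293 on the plus strand for *Igfbp4* and chr1:72874816-72875115 on the minus strand for *Igfbp5*. Capitals mark motif matches.
Igf1: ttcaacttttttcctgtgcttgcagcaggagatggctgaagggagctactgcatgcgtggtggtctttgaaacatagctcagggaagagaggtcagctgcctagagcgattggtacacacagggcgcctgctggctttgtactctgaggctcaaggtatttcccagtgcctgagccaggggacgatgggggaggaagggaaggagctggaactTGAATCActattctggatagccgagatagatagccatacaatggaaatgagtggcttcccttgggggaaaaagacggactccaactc
Igfbp3: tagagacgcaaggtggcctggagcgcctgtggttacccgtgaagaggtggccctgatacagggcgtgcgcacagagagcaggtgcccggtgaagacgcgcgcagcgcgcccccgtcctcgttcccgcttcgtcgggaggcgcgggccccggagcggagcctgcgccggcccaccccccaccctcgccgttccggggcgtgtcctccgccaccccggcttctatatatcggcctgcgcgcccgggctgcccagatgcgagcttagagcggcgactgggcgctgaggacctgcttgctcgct
Igfbp4: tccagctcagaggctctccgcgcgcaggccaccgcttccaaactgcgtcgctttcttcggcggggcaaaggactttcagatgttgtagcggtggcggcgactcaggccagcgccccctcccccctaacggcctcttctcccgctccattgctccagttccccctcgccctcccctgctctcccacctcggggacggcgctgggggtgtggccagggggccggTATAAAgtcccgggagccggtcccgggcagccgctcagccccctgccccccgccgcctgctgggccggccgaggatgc
Igfbp5: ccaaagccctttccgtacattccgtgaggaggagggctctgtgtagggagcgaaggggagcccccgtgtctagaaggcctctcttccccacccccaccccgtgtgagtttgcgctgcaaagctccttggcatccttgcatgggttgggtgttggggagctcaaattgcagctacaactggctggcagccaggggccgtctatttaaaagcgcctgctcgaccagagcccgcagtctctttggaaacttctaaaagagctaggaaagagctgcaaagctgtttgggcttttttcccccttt
Motifs were searched on both strands, the TATA box TATAAA, the hypoxia response element core ACGTG, the AP-1 site TGANTCA and the GC box GGGCGG, which occur in 13.6%, 19.6%, 7.81% and 35.7% of 32851 promoters. The *Igf1* window held an AP-1 match 37 bases before the start, the *Igfbp4* window a TATA box 28 bases before it, and the other windows held none of the 4. Over the 10 RefSeq windows of the 9 genes, the counts with a match were 2, 3, 2 and 4 in the same order. These matches describe letters and were not linked to any level. RefSeq starts can differ from the gene starts in GENCODE, as they do for *Igf1*, *Igf1r* and *Igfbp6*. In GENCODE (GRCm38, which is mm10) the genes span chr10:87858265-87937042 (*Igf1*), chr7:67952827-68233668 (*Igf1r*), chr17:12682406-12769664 (*Igf2r*), chr11:7206086-7213923 (*Igfbp3*), chr11:99041244-99054392 (*Igfbp4*), chr15:102144362-102149511 (*Igfbp6*) and chr5:77349240-77408041 (*Igfbp7*). *Igfbp2* (chr1:72824503-72852474) and *Igfbp5* (chr1:72857932-72874884) lie tail to tail with 5457 bases between them.

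To see which cells carry each gene, levels were first compared across classes. Among the compared classes, fibroblast-like cells were highest for *Igf1*, *Igfbp4* and *Igfbp6* in both libraries. Endothelial-like cells were highest for *Igfbp5* in both, and neutrophil-like cells for *Igf1r* in both. The smaller classes, which were not compared, held 395 *Igfbp6* UMIs (2.59%) and 286 *Igfbp5* UMIs (4.34%) in sham. Cardiomyocyte-like and Schwann-like cells held 1 and 1 of the former and 8 and 0 of the latter. Nearly all thus lay in 17 dendritic-like, 6 mesothelial-like and 8 platelet-like cells. A level above that of the leading compared class is possible among these few cells, and it was not worked out by class. In sham 38 Schwann-like cells had 199 CPM of *Igf1r* (116 to 319, 17 UMIs). The leading class changed for *Igfbp3*, from endothelial-like in sham to fibroblast-like in IR, for *Igfbp7*, from fibroblast-like to mural-like, and for *Igf2r*, from fibroblast-like to endothelial-like, where endothelial-like and mural-like intervals overlapped. A lead of 4-fold or more over the next class was held in sham by *Igfbp4* (6.49-fold) and *Igfbp6* (6.51-fold), 2 of 8 genes, against 11.6% of all 13334 genes compared. In IR it was held only by *Igfbp5* (4.08-fold), 1 of 8, against 11.7% of 13306 genes.

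**Figure D1:**
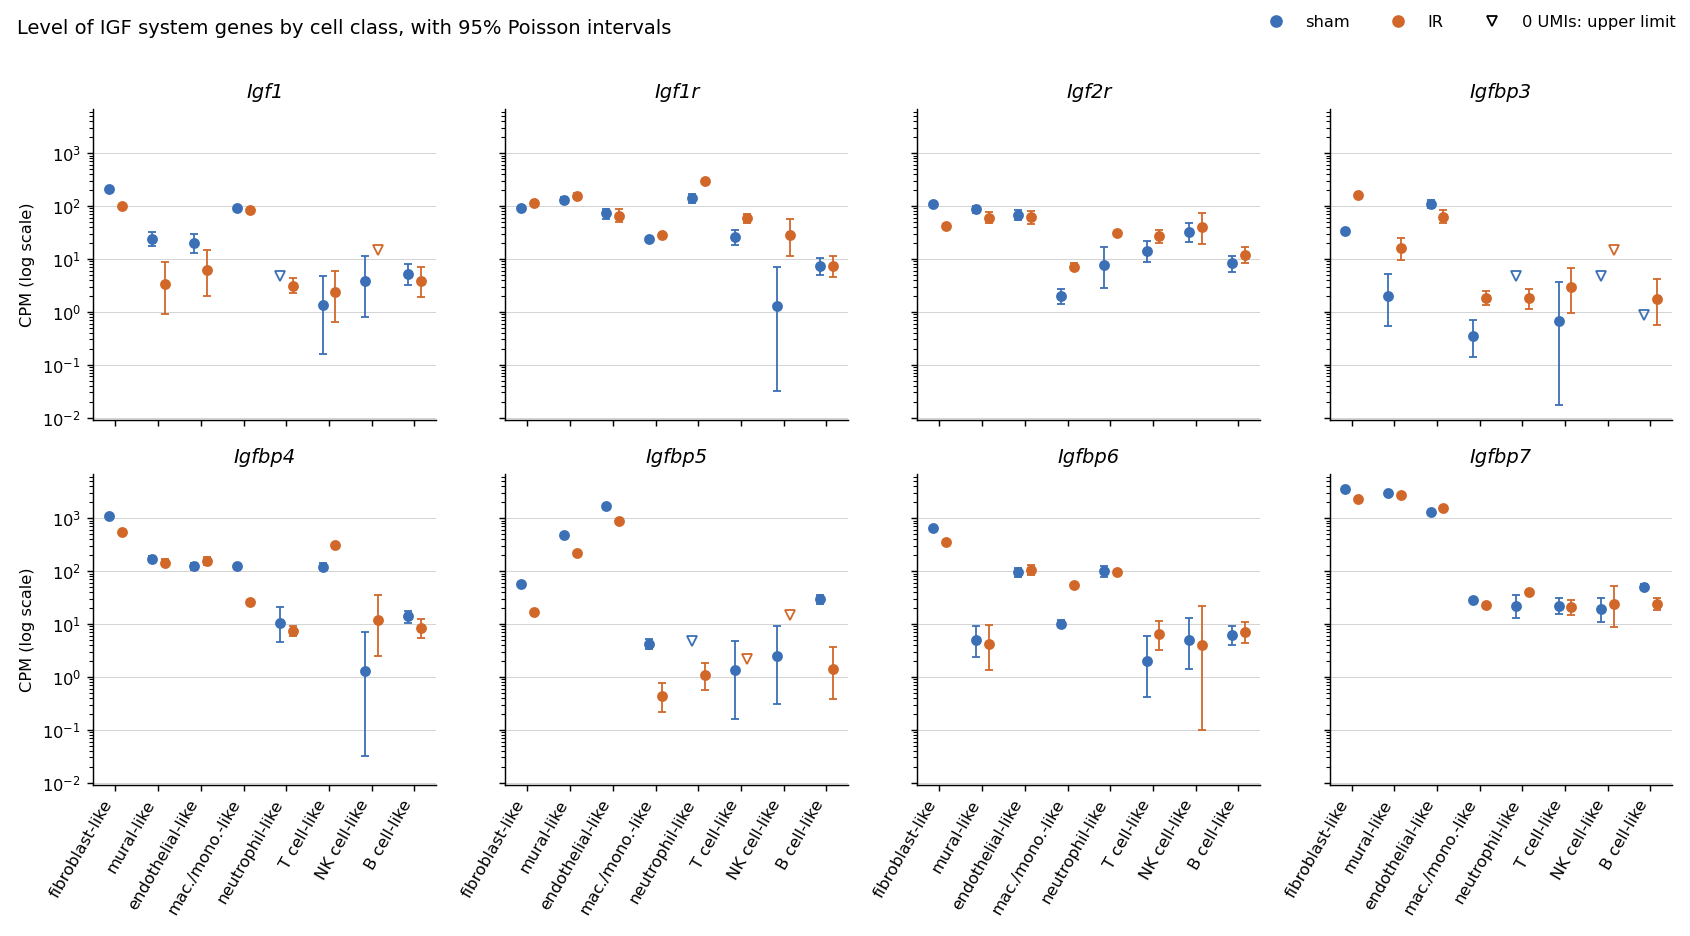
Level of 8 IGF system genes in 8 cell classes, in CPM on a log scale, for the sham (blue) and IR (orange) libraries, with exact Poisson 95% intervals and an open triangle for the upper limit where no UMI was seen. *Igf1* stands above the other classes in fibroblast-like and macrophage/monocyte-like cells, *Igf1r* is highest in neutrophil-like cells, and *Igfbp7* is over 1000 CPM only in fibroblast-like, mural-like and endothelial-like cells.

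The ligand *Igf1* was a gene of fibroblast-like and macrophage/monocyte-like cells. In fibroblast-like cells its level was 214 CPM (95% interval 208 to 221, 4023 UMIs) in sham and 97.9 CPM (94.1 to 102, 2428 UMIs) in IR, 2.19-fold lower in IR (log2 -1.13, -1.20 to -1.06). In macrophage/monocyte-like cells it was 93.5 CPM (89.4 to 97.8) in sham and 85 CPM (81.4 to 88.6) in IR, a log2 difference of -0.14 (-0.23 to -0.05). The lead of fibroblast-like over macrophage/monocyte-like cells was thus 2.29-fold in sham and 1.15-fold in IR, where it turned to 0.748 with cells over 2500 genes left out and to 0.975 with size factors. In IR the 2500-gene limit left only 212 of 1654 fibroblast-like cells. The direction in fibroblast-like cells depended on the scale: per cell the mean was 1.18 UMIs in sham and 1.47 in IR (log2 0.32, 0.25 to 0.39), while per macrophage/monocyte-like cell it was 0.521 and 0.955 (log2 0.88). When each cell was thinned to 1000 UMIs, leaving out 43 sham and 8 IR cells below that depth, 17.6% of fibroblast-like cells in sham and 8.93% in IR held an *Igf1* UMI (53% and 44.4% before thinning). The corresponding shares were 8.28% and 7.82% in macrophage/monocyte-like cells, with 62 and 29 cells left out (28.4% and 27% before thinning). B cell-like cells served as the background, with 0.614% and 0.437% (median depths 2324 and 3443 UMIs).

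Vessel wall cells held little of the ligand. Mural-like cells had 24.1 CPM in sham (48 UMIs) and 3.35 CPM in IR (4 UMIs), with all 48 sham UMIs in cells with pericyte markers and none in cells with smooth muscle markers, where the floor of 3 UMIs makes pericytes at least 13.4-fold higher. Endothelial-like cells had 20.2 CPM (24 UMIs) and 6.19 CPM (5 UMIs). Neutrophil-like cells held no *Igf1* UMI in sham and 38 in IR, 13 of them in 1 cell, at 3.13 CPM, which is no higher than the 3.89 CPM of B cell-like cells. *Igf2*, the other ligand, was highest in endothelial-like cells at 94.1 CPM in sham and 164 CPM in IR, and the insulin genes were near absent (*Ins1* 0 and 2 UMIs, *Ins2* 8 and 0 UMIs over all kept cells).

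*Igf1r*, which encodes the kinase receptor for IGF-1, was found in the stromal classes and in neutrophil-like cells. Neutrophil-like cells led the compared classes with 140 CPM (114 to 169, 107 UMIs) in sham and 293 CPM (283 to 303, 3553 UMIs) in IR, 2.10-fold higher (log2 1.07, 0.79 to 1.36). It was 2-fold or more in 4 of 9 other settings, with log2 from 0.55 to 1.67. In sham their interval overlapped that of mural-like cells, at 132 CPM (116 to 149). Mural-like cells had 154 CPM in IR, and fibroblast-like cells 90.1 CPM in sham and 116 CPM in IR (log2 0.36, 0.27 to 0.45). Endothelial-like cells had 72.3 and 65.7 CPM with overlapping intervals. Macrophage/monocyte-like cells had 23.5 and 28.2 CPM, above the 7.3 and 7.43 CPM of B cell-like cells but below every stromal class. T cell-like cells had 25.5 CPM in sham and 59.4 CPM in IR (38 and 102 UMIs, log2 1.22, 0.67 to 1.80). Per cell, *Igf1r* was higher in IR in all 5 main classes, with a mean of 0.401 and 1.49 UMIs in neutrophil-like and of 0.495 and 1.73 UMIs in fibroblast-like cells. The thinned share was 16% and 23.5% in neutrophil-like cells (11 and 75 left out), against a B cell-like share of 0.263% and 0.583%.

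The neutrophil-like class was split, after its values were seen, by UMIs of *Cxcl3* and *Spp1*, genes of activated neutrophils that were carried by 14 sham and 1665 IR cells. The receptor was not confined to the activated state. In IR it was 287 CPM in *Cxcl3*/*Spp1* cells and 316 CPM in the other neutrophil-like cells, and among the latter it was 146 CPM in sham (log2 IR over sham 1.11, 0.82 to 1.42). Macrophage markers in neutrophil-like cells stood at 7.12% of the macrophage/monocyte level in sham and 6.27% in IR.

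*Igf2r*, the clearance and sorting receptor, was highest in the stromal classes but was not confined to them. NK cell-like cells had 31.8 CPM (20.6 to 46.9, 25 UMIs) in sham and 39.9 CPM (19.1 to 73.3, 10 UMIs) in IR. The latter interval overlapped that of fibroblast-like cells. T cell-like cells had 14.1 CPM in sham and 26.8 CPM in IR. Fibroblast-like cells had 108 CPM (104 to 113, 2035 UMIs) in sham and 42.5 CPM (40 to 45.1, 1053 UMIs) in IR, 2.55-fold lower (log2 -1.35, -1.46 to -1.24), but 0.595 and 0.637 UMIs per cell (log2 0.10, -0.01 to 0.21). Mural-like cells had 86.4 and 60.4 CPM (log2 -0.52, -0.93 to -0.11) and endothelial-like cells 68.1 and 61.9 CPM, but per cell both were higher in IR, with 0.216 and 0.385 UMIs in mural-like and 0.308 and 0.495 UMIs in endothelial-like cells. Within the mural class the gene was mainly in pericytes, at 134 CPM against 29.8 CPM in smooth muscle in sham (log2 2.17, 1.57 to 2.82) and 108 against 26.1 CPM in IR (log2 2.04, 1.25 to 2.90). Neutrophil-like cells had 7.83 CPM in sham (6 UMIs) and 30.9 CPM in IR (375 UMIs), 3.95-fold higher (log2 1.98, 0.85 to 3.44), the latter above the 12 CPM (8.33 to 16.8) of B cell-like cells. This did not hold across the class. In IR a cluster led by *Il1a*, *Spp1* and *Cxcl3* (1519 IR, 3 sham cells) had 38.5 CPM (34.4 to 42.9). A cluster led by *Fam101b*, *Mmp8* and *Scrg1* (711 IR cells) had 11.4 CPM (7.72 to 16.1), at the B cell-like level. Macrophage/monocyte-like cells had 1.96 CPM (40 UMIs) and 7.15 CPM (181 UMIs), 3.65-fold higher (log2 1.87, 1.37 to 2.40), both below the B cell-like level of 8.25 and 12 CPM. Only the *Ly6c2*/*Ace* cluster of the class in IR, at 33.4 CPM (21.2 to 50.2, 23 UMIs in 72 cells), lay above that level. Per cell the order in IR was reversed, with 0.0803 UMIs in macrophage/monocyte-like and 0.0488 in B cell-like cells (0.0109 and 0.0304 in sham).

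The antisense RNA *Airn* (chr17:12741311-12860136, plus strand) overlaps 28354 bases of *Igf2r*, and whether the counting used strand is not given in the sources used here. *Airn* was likewise highest in stromal cells among the main classes and was lower in IR there. It was 50.9 and 15.3 CPM in fibroblast-like, 88.9 and 43.6 CPM in mural-like and 58.8 and 40.9 CPM in endothelial-like cells. It was near absent from neutrophil-like cells (0 and 9 UMIs) and macrophage/monocyte-like cells (10 and 8 UMIs). Reads of the overlap could be split between the pair, so the *Igf2r* values of stromal cells are uncertain to that extent, which was not tested.

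*Igfbp3* encodes the main carrier of IGF in blood and is also made by vessels and fibroblasts. In fibroblast-like cells it was 33.3 CPM (30.7 to 36, 624 UMIs) in sham and 162 CPM (157 to 167, 4022 UMIs) in IR, 4.88-fold higher (log2 2.29, 2.16 to 2.41), with 0.183 and 2.43 UMIs per cell (log2 3.74). The thinned share of positive cells was 2.58% and 8.75%. In endothelial-like cells it was lower in IR, at 109 CPM (91.3 to 130, 130 UMIs) and 63.2 CPM (47 to 83.1, 51 UMIs), but equal per cell at 0.494 and 0.505 UMIs. Mural-like cells held 4 UMIs in sham and 19 in IR, 10 of them in 1 cell. All leukocyte classes lay under 3 CPM, and the 1.86 CPM of macrophage/monocyte-like cells in IR (47 UMIs, 14 in 1 cell) was at the B cell-like level of 1.77 CPM.

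The *Igfbp3* UMIs sat in few fibroblast-like cells. Cells with 5 or more of them, a limit chosen after the values were seen, were 34 of 3419 in sham (0.994%) and held 54.5% of the UMIs, and were 184 of 1654 in IR (11.1%) and held 88.2%. The remaining cells had 15.3 CPM in sham and 22.4 CPM in IR. The carriers were led by *Cxcl5*, *Crabp2*, *Tnc*, *Cxcl3* and *Ch25h*, and in IR they had a median of 17621 UMIs against 13390.5 in the others. Fibroblast-like cells were also split at 2 UMIs of the adventitial markers *Pi16*, *Dpp4*, *Cd248* and *Sema3c*. Cells at or above this cut were 73.1% of the class in sham and 77.1% in IR, so the split does not set apart a small adventitial group. Cells below the cut had more *Igfbp3* than the rest, 103 against 13.6 CPM in sham and 288 against 136 CPM in IR. Both groups were higher in IR (log2 1.48 below the cut, 3.32 at or above it).

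*Igfbp4*, whose product holds IGF-1 until PAPP-A cuts it, was a gene of fibroblast-like cells that also marked a part of the macrophages and T cells. In fibroblast-like cells it was 1121 CPM (1106 to 1136, 21038 UMIs) in sham and 549 CPM (540 to 558, 13614 UMIs) in IR, 2.04-fold lower (log2 -1.03, with an interval from -1.06 up to the 2-fold line), with 6.15 and 8.23 UMIs per cell (log2 0.42). The difference was 2-fold or more in 5 of 9 other settings. The thinned share was 61.4% and 38.5%. In macrophage/monocyte-like cells it was 124 CPM (120 to 129, 2541 UMIs) and 26.5 CPM (24.6 to 28.6, 672 UMIs), 4.69-fold lower (log2 -2.23, -2.35 to -2.11), and lower per cell too, with 0.692 and 0.298 UMIs (log2 -1.21). The thinned share there was 11.4% and 2.2%, against a B cell-like share of 1.4% and 0.875%. The T cell-like class went the other way, with 121 CPM (104 to 140, 181 UMIs) and 317 CPM (291 to 344, 544 UMIs), 2.61-fold higher (log2 1.38, 1.14 to 1.63), and thinned shares of 10.3% and 19.4%. In mural-like cells the total was 173 and 143 CPM (0.432 and 0.914 UMIs per cell), and the parts differed on CPM: pericytes had 69.2 and 131 CPM (log2 0.93, 0.43 to 1.42) and smooth muscle 296 and 152 CPM (log2 -0.96, -1.30 to -0.63). Endothelial-like cells had 123 and 154 CPM with overlapping intervals.

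*Igfbp5*, a binding protein that also binds matrix, was highest in the vessel wall classes among those compared. Endothelial-like cells had 1719 CPM (1645 to 1795, 2045 UMIs) in sham and 887 CPM (823 to 954, 716 UMIs) in IR (log2 -0.95, -1.08 to -0.83), with 7.78 and 7.09 UMIs per cell. These UMIs sat in few cells. Cells with 10 or more, a limit set after the values were seen, were 33 of 263 in sham (12.5%) and held 94.8%, and were 11 of 101 in IR (10.9%) and held 94.6%, while the other endothelial-like cells had 108 and 55.2 CPM. Genes that led the carriers included *Inhba*, *Ctgf*, *Meg3* and *Lyve1*, and without the cell with the most UMIs (491 in sham, 160 in IR) the class had 1337 and 693 CPM. In mural-like cells *Igfbp5* was 492 CPM (462 to 524) and 217 CPM (192 to 245), 2.27-fold lower (log2 -1.18, -1.38 to -0.98), with 1.23 and 1.39 UMIs per cell, and it was lower both in pericytes (log2 -1.27) and in smooth muscle (log2 -1.17). In fibroblast-like cells it was 57.5 and 17.1 CPM, 3.37-fold lower (log2 -1.75, -1.92 to -1.59), and lower per cell as well, with 0.316 and 0.256 UMIs (log2 -0.30, -0.47 to -0.14). Macrophage/monocyte-like cells had 4.21 and 0.434 CPM (86 and 11 UMIs, 30 of the sham UMIs in 1 cell), under the 29.2 and 1.42 CPM of B cell-like cells, where 67 of 124 sham UMIs came from 1 cell.

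*Igfbp6*, whose product prefers IGF-2, was highest among the compared classes in fibroblast-like cells. Their level was 646 CPM (635 to 658, 12125 UMIs) in sham and 357 CPM (350 to 365, 8859 UMIs) in IR (log2 -0.85, -0.89 to -0.81), with 3.55 and 5.36 UMIs per cell. Cells with at least 2 UMIs of the adventitial markers had 730 CPM in sham and the others 346 CPM, and in IR 404 and 132 CPM. Neutrophil-like cells had 99.2 CPM (78.2 to 124, 76 UMIs) and 97.2 CPM (91.7 to 103, 1178 UMIs), a log2 difference of -0.03 (-0.37 to 0.32), with 0.285 and 0.495 UMIs per cell. The class total joined unlike states. In IR *Igfbp6* was 82.7 CPM in *Cxcl3*/*Spp1* cells, of which sham had only 14, and 151 CPM in the other neutrophil-like cells. Among the latter it was 99.7 CPM in sham (log2 IR over sham 0.60, 0.23 to 0.99). Endothelial-like cells had 95.8 and 105 CPM, of which 11 of 263 cells held 92.1% in sham and 5 of 101 held 89.4% in IR. Macrophage/monocyte-like cells had 10.2 CPM (8.84 to 11.7, 208 UMIs) and 54.4 CPM (51.6 to 57.4, 1378 UMIs), 5.35-fold higher (log2 2.42, 2.21 to 2.64), and 0.0567 and 0.612 UMIs per cell (log2 3.43). Of the 208 sham UMIs, 48 were in 1 cell. Their thinned share was 0.36% in sham, as low as the 0.351% of B cell-like cells, and 4.5% in IR against 0.583%. The fibroblast markers stood at 0.445% of the fibroblast-like level in macrophage/monocyte-like cells of sham and 0.585% in IR, with none of the 8 marker genes at 0. The part of free RNA in the *Igfbp6* values of leukocytes was not tested. *Igfbp6* made up 15.1% and 13.6% of the *Igfbp6* and *Igfbp7* UMIs together in fibroblast-like cells and 10.9% and 22.7% in B cell-like cells, 81.7% and 70.7% in neutrophil-like cells and 26.3% and 70.4% in macrophage/monocyte-like cells.

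*Igfbp7*, a secreted matrix protein of vessels with weak IGF binding, was high in all 3 stromal classes. Fibroblast-like cells had 3645 CPM (3618 to 3672) in sham and 2267 CPM (2249 to 2286) in IR (log2 -0.68, -0.70 to -0.67), but 20 and 34 UMIs per cell. Mural-like cells had 2985 and 2766 CPM (log2 -0.11, -0.17 to -0.05; 7.47 and 17.6 UMIs per cell), and endothelial-like cells 1331 and 1532 CPM (log2 0.20, 0.10 to 0.31). Schwann-like cells, only 38 in sham, had 3892 CPM. The leukocyte classes lay between 19.1 and 50 CPM in both libraries, with the B cell-like class at 50 and 24.1 CPM. Of them, only neutrophil-like cells in IR, at 40.2 CPM (36.8 to 44, 488 UMIs, 65 in 1 cell), had an interval above that of B cell-like cells (18.7 to 30.5 in IR). The others were not told apart from background on CPM. Per cell, macrophage/monocyte-like cells had 0.159 UMIs in sham and 0.257 in IR, against 0.184 and 0.0976 in B cell-like cells. *Igfbp2* gave 3 UMIs in the compared classes of sham (1 in fibroblast-like and 2 in mural-like cells) and none in IR, where 0 UMIs in fibroblast-like cells allow up to 0.121 CPM (3 UMIs).

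Between the libraries, the 2-fold differences were read against all genes with at least 20 UMIs in 1 of the libraries. In fibroblast-like cells 1 of 8 set genes was 2-fold or more higher in IR (*Igfbp3*), against 12% of 12548 genes, and 4 were 2-fold or more lower (*Igf1*, *Igf2r*, *Igfbp4*, *Igfbp5*), against 15.5%. The median log2 difference was -0.942 over the set and -0.0588 over all genes. In macrophage/monocyte-like cells 3 of 8 were higher (*Igf2r*, *Igfbp3*, *Igfbp6*), against 9.01% of 11719 genes, and 2 were lower (*Igfbp4*, *Igfbp5*), against 13.9%. Of these 5, *Igfbp4* and *Igfbp6* had CPM intervals above the B cell-like interval in at least 1 library, and *Igf2r*, *Igfbp3* and *Igfbp5* had not. In neutrophil-like cells 2 of 7 were higher (*Igf1r*, *Igf2r*), against 9.58% of 8579 genes, and 0 were lower, against 27.2%. In mural-like cells 0 of 6 were higher, against 6.03% of 8579 genes, and 2 were lower (*Igf1*, *Igfbp5*), against 10.3%. In endothelial-like cells 0 of 8 were higher, against 8.08% of 6891 genes, and 1 was lower (*Igf1*), against 10.3%. With so few genes, a share of the set near these background shares is no result about the set.

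**Figure D2:**
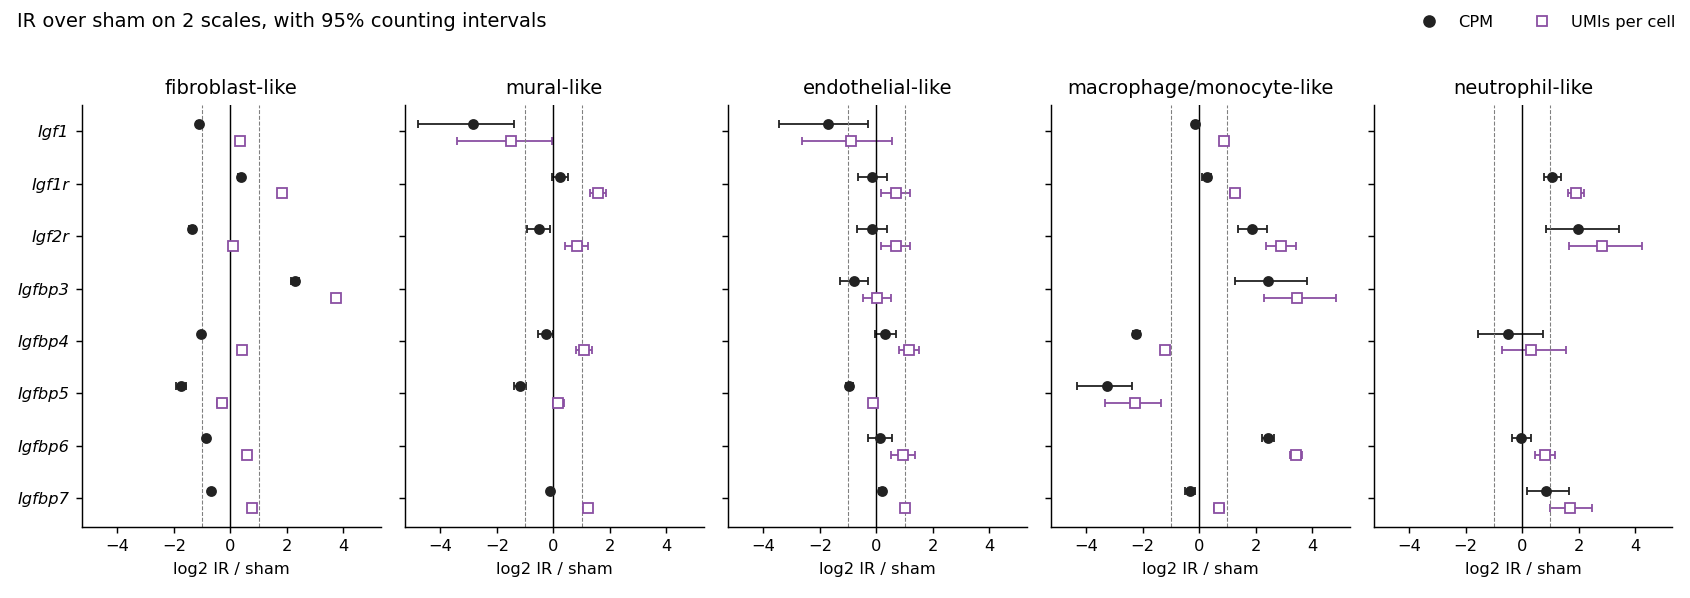
IR over sham as log2 ratios for 8 genes in 5 cell classes, on CPM (filled circles) and on UMIs per cell (open squares), with 95% counting intervals and dashed lines at 2-fold. In fibroblast-like cells *Igf1*, *Igf2r* and *Igfbp4* lie beyond 2-fold lower on CPM and at or above 0 per cell, whereas *Igfbp3* is higher and *Igfbp5* lower on both scales, and *Igfbp4* in macrophage/monocyte-like cells is lower on both.

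Because cell numbers also differed, the share of each gene's UMIs held by each class was listed, in sham and in IR. Of the *Igf1* UMIs, fibroblast-like cells held 60.6% and 50.2%, and macrophage/monocyte-like cells 28.8% and 44.5%. Of the *Igf1r* UMIs, neutrophil-like cells held 3.34% in sham and 44% in IR, while fibroblast-like cells held 52.9% and 35.5%. Of *Igfbp3*, fibroblast-like cells held 66.2% and 92.3%, and endothelial-like cells 13.8% and 1.17%. Of *Igfbp6*, macrophage/monocyte-like cells held 1.36% and 11.1%. Fibroblast-like cells held 77.4% and 84.1% of *Igfbp4* and 78.8% and 85.8% of *Igfbp7*. *Igfbp5* was divided over several classes, with 31.1% and 47.4% in endothelial-like, 16.4% and 28% in fibroblast-like, 14.9% and 17.1% in mural-like and 29.7% and 4.43% in mixed cells. These shares move with the number of cells recovered, and the neutrophil-like class numbered 267 cells in sham and 2381 in IR.

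**Figure D3:**
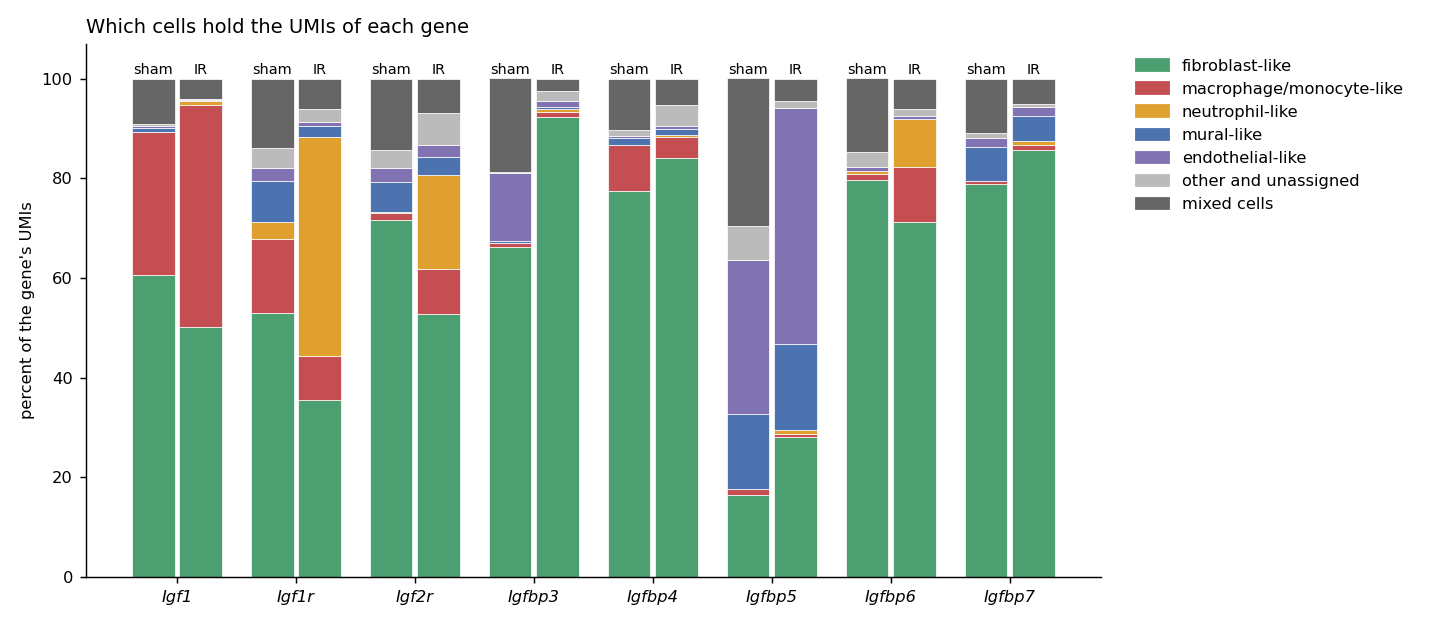
Percent of each gene's UMIs in kept cells held by each cell class, as stacked bars for sham and IR. The neutrophil-like part of *Igf1r* is 3.34% in sham and 44% in IR, and the fibroblast-like part of *Igfbp3* is 66.2% and 92.3%.

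To place the ligand within the macrophages, cells were split by markers of resident macrophages (*Timd4*, *Lyve1*, *Folr2*) and of recruited monocytes (*Ccr2*, *Ly6c2*, *Chil3*), with at least 2 UMIs of a set. Cells with resident markers were 1420 in sham (38.7%) and 513 in IR (22.8%), and cells with recruited markers 505 (13.8%) and 1278 (56.7%). Cells with neither set were 46% and 18.3%. The cut was not scaled to depth, while the class had a median of 4912 UMIs in sham and 11439 in IR. The states may thus not hold like cells in the 2 libraries, which limits the ratios of IR over sham within a state. *Igf1* was higher in the resident than in the recruited state, at 145 CPM against 15.1 CPM in sham (9.58-fold, log2 3.26, 2.88 to 3.66) and 200 against 10.6 CPM in IR (18.9-fold, log2 4.24, 4.00 to 4.48). Within resident cells it was higher in IR (log2 0.46, 0.35 to 0.58), and within recruited cells lower (log2 -0.51, -0.95 to -0.06). Cells with neither marker set had 78.4 CPM in sham and 233 CPM in IR (log2 1.57, 1.41 to 1.73). Their interval in IR (216 to 251) lay above that of resident cells (189 to 211), so *Igf1* was not particular to the resident state. The same order was seen when cells were split, after the values were seen, by *Mertk* and *Ccr2*, with 141 CPM in *Mertk*-only and 23.5 CPM in *Ccr2*-only cells of sham and 176 and 14.1 CPM in IR.

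*Igfbp4* followed *Igf1* across states but not across libraries. It was 205 CPM in resident and 22.5 CPM in recruited cells of sham and 70.3 and 7.24 CPM in IR, so that resident cells stood higher by log2 3.19 and 3.28. Within both states it was lower in IR, by log2 -1.54 (-1.70 to -1.39) in resident and -1.64 (-2.05 to -1.22) in recruited cells. The recruited level in IR (5.97 to 8.7) was at the B cell-like level of 8.5 CPM (5.44 to 12.6), so ratios that use it are limited by that background. *Igfbp6* was higher in IR in recruited cells, at 13.3 and 83.2 CPM (52 and 1299 UMIs, log2 2.64, 2.24 to 3.07). In resident cells it was 12.6 and 3.2 CPM (105 and 19 UMIs, log2 -1.97, -2.76 to -1.26), but 48 of the 105 sham UMIs were in 1 cell. Without the cell with the most UMIs in each library it was 6.83 and 2.87 CPM there (log2 -1.25, -2.13 to -0.45). With only cells that lay in a cluster of their own class, 1405 and 507 of 1420 and 513, it was 3.28 and 3.08 CPM (log2 -0.09, -1.04 to 0.82), whereas the recruited value remained at 13.3 and 83.4 CPM (log2 2.64, 2.24 to 3.08). Neutrophil markers in recruited cells stood at 1.47% of the neutrophil-like level in sham and 4.37% in IR, and at 0.247% and 0.671% in resident cells, and their part in the *Igfbp6* difference was not tested. *Igf1r* was 13.8 and 29.8 CPM in recruited cells (log2 1.11, 0.70 to 1.54) and 25.6 and 24.6 CPM in resident cells.

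**Figure D4:**
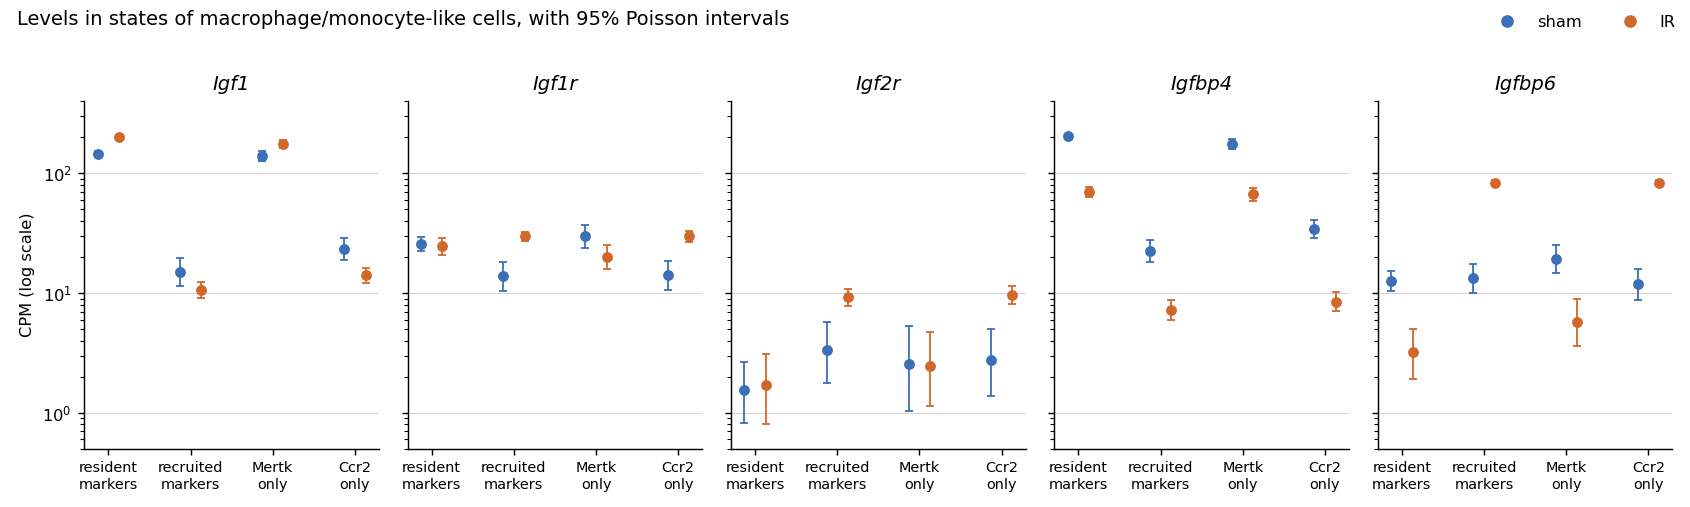
CPM on a log scale of 5 genes in macrophage/monocyte-like cells with resident or recruited markers and in *Mertk*-only or *Ccr2*-only cells, for sham (blue) and IR (orange), with 95% Poisson intervals. *Igf1* and *Igfbp4* are higher in resident and *Mertk*-only cells in both libraries, while *Igfbp6* in IR is 83.2 CPM in recruited and 3.2 CPM in resident cells.

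The clusters of this class, built without the 9 genes, separated the ligand further. In IR a cluster led by *Lpl*, *Hmox1*, *Cd36* and *Gdf15* (843 IR cells, 17 sham cells) had 216 CPM of *Igf1*, 56 CPM of *Igfbp4* and 6.43 CPM of *Igfbp6*. A cluster led by *Chil3*, *Mmp8* and *Vcan* (1129 IR, 45 sham cells) had 4.53, 5.47 and 91.4 CPM, so *Igf1* was 47.6-fold higher in the former (log2 5.57, 5.21 to 5.96) and *Igfbp6* 14.2-fold lower (log2 -3.83, -4.23 to -3.45). The 17 sham cells of the *Lpl*/*Hmox1* cluster had 368 CPM of *Igf1* (47 UMIs, 271 to 490). Also in sham, the cluster led by *Folr2*, *Ccl8* and *Lyve1* (772 cells) had 181 CPM of *Igf1* and 277 CPM of *Igfbp4*. A cluster led by the cardiomyocyte gene *Myl2* and by antigen presentation genes (*H2-Eb1*, *Cd74*, 1312 cells), with the cardiomyocyte genes *Mb*, *Myl3* and *Tnnt2* also among its leading genes, had 102 and 124 CPM, a cluster with interferon response genes (*Ifit2*, *Isg15*, 1015 cells) 61.8 and 71.2 CPM, and a cluster with *Ly6c2* and *Ace* (335 cells) 21.7 CPM of *Igf1*. A cluster that is nearly all from 1 library may be that library and not a cell state.

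Fibroblast-like cells fell into 3 main clusters, which were almost separate between the libraries. A cluster led by *Isg15*, *Spon2* and *Apod* held 3230 sham and 34 IR cells, a cluster led by *Cxcl5*, *Ccl2*, *Ptx3* and *Timp1* held 7 sham and 1000 IR cells, and a cluster led by *Zbtb16*, *Dbp*, *Cilp* and *Per3* held 113 sham and 545 IR cells. The CPM of *Igf1*, *Igf2r* and *Igfbp4* in IR was lowest in the *Cxcl5*/*Ptx3* cluster, and the IR cells of the other main clusters lay above it. *Igf1* was 216 CPM in the *Spon2*/*Apod* cluster of sham, 68.2 CPM in the *Cxcl5*/*Ptx3* cluster of IR and 180 CPM in the *Cilp*/*Dbp* cluster of IR, the last against 232 CPM in the same cluster of sham (log2 -0.37, -0.59 to -0.14). *Igfbp4* was 1146, 322 and 1169 CPM in the same order, and 817 CPM in the *Cilp*/*Dbp* cluster of sham (log2 IR over sham 0.52, 0.40 to 0.63). *Igf2r* was 111, 30.2 and 72.5 CPM, and 79.2 CPM in the *Cilp*/*Dbp* cluster of sham (log2 -0.13, -0.50 to 0.27). The 34 IR cells of the *Spon2*/*Apod* cluster were also below its sham cells, with 138 CPM of *Igf1* (101 to 185), 815 CPM of *Igfbp4* (720 to 919) and 73.8 CPM of *Igf2r* (47.3 to 110, against 106 to 116 in sham).

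*Igfbp3* stood out in the *Cxcl5*/*Ptx3* cluster at 216 CPM, against 42 CPM in the *Cilp*/*Dbp* cluster of IR (log2 2.36, 2.18 to 2.55) and 34.4 CPM in the *Spon2*/*Apod* cluster of sham, whose IR cells had 9.22 CPM (3 UMIs). *Igf1r* had its highest level in the *Cilp*/*Dbp* cluster of IR, 188 CPM, against 64.8 CPM in that cluster of sham (54 UMIs, log2 1.54, 1.15 to 1.96) and 86.8 CPM in the *Cxcl5*/*Ptx3* cluster. *Igfbp5* was lower in IR within the *Cilp*/*Dbp* cluster, at 181 CPM in sham and 14.7 CPM in IR (151 and 92 UMIs, log2 -3.62, -4.01 to -3.24), and was 48.4 CPM in the *Spon2*/*Apod* cluster of sham and 19.3 CPM in the *Cxcl5*/*Ptx3* cluster of IR. *Igfbp6* and *Igfbp7* were lower in IR within the *Cilp*/*Dbp* cluster, by log2 -0.81 and -0.80.

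**Figure D5:**
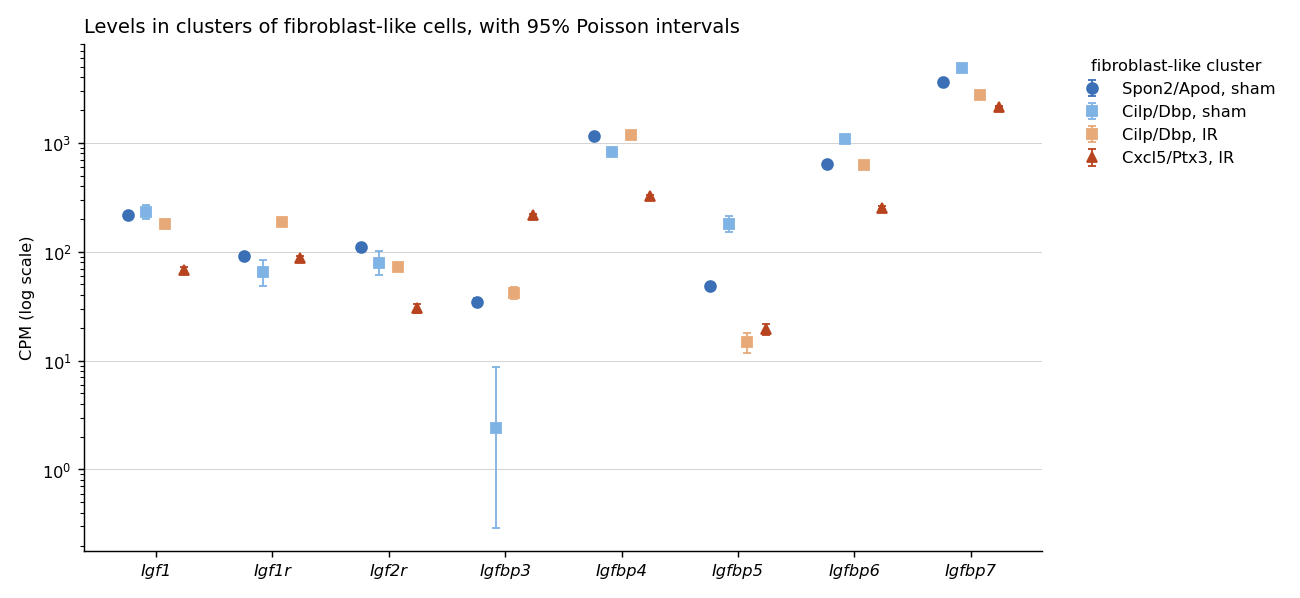
CPM on a log scale of 8 genes in clusters of fibroblast-like cells, with 95% Poisson intervals: *Spon2*/*Apod* in sham, *Cilp*/*Dbp* in sham and IR, and *Cxcl5*/*Ptx3* in IR. *Igf1* and *Igfbp4* are lowest in the *Cxcl5*/*Ptx3* cluster (68.2 and 322 CPM), where *Igfbp3* is highest (216 CPM).

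The other genes of the pathway were read from a list of 57. In macrophage/monocyte-like cells 6 of 42 with enough UMIs were 2-fold or more higher in IR and 4 lower, in fibroblast-like cells 6 and 7 of 49, in mural-like cells 4 and 6 of 44, in endothelial-like cells 3 and 4 of 36, and in neutrophil-like cells 3 and 9 of 40. The higher and lower shares of the list were 14.3% and 9.52% in macrophage/monocyte-like cells against 9.01% and 13.9% of all genes, 12.2% and 14.3% in fibroblast-like cells against 12% and 15.5%, 9.09% and 13.6% in mural-like cells against 6.03% and 10.3%, 8.33% and 11.1% in endothelial-like cells against 8.08% and 10.3%, and 7.5% and 22.5% in neutrophil-like cells against 9.58% and 27.2%. Among partners, proteases and protease inhibitors, *Pappa*, the protease that cuts IGFBP-4, was 7.09 and 23.7 CPM in fibroblast-like cells (log2 1.74, 1.47 to 2.03). *Stc1*, which encodes an inhibitor of PAPP-A, was 0.426 and 4.32 CPM there (8 and 107 UMIs, log2 3.34) and 5.52 and 62.9 CPM in mural-like cells (11 and 75 UMIs, log2 3.51). *Vtn*, encoding vitronectin, a matrix partner of IGF binding proteins, was 1752 and 426 CPM in mural-like cells (log2 -2.04). It was also a marker that set the mural class and the pericyte state, so this value was not independent of the class rule. Pericytes were 72.4% of mural-like cells in sham and 60.4% in IR. In fibroblast-like cells *Vtn* was 9.27 and 0.968 CPM (log2 -3.26), and in macrophage/monocyte-like cells 4.06 and 0.592 CPM (log2 -2.78). Mural markers stood at 0.403% and 1.27% of the mural-like level in fibroblast-like cells, and at 0.186% and 0.16% in macrophage/monocyte-like cells. The part of free RNA in these values was not tested.

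Among signalling genes, *Socs2*, a feedback inhibitor of growth hormone signalling, was 1.61 and 23.8 CPM in macrophage/monocyte-like cells (33 and 604 UMIs, log2 3.88, 3.38 to 4.44), and the kinase gene *Jak2* was 17.4 and 76.9 CPM there (log2 2.14) and 21 and 89.2 CPM in endothelial-like cells (log2 2.09). In neutrophil-like cells, added after its values were seen, *Jak2* was 39.2 and 228 CPM (30 and 2762 UMIs, log2 2.54, 2.02 to 3.11). The adaptor gene *Grb14* was 38.2 and 8.39 CPM in mural-like cells (76 and 10 UMIs, log2 -2.19). In endothelial-like cells the lysosomal enzyme genes *Gaa* (26.9 and 8.67 CPM, 32 and 7 UMIs) and *Hexa* (87.4 and 28.5 CPM, 104 and 23 UMIs), whose products are sorted by mannose 6-phosphate receptors, were lower in IR by log2 -1.63 and -1.62. *Ghr*, the growth hormone receptor gene, was highest in fibroblast-like cells at 93.2 and 89.6 CPM. The insulin receptor gene *Insr* was highest in mural-like cells of sham (37.2 CPM) and endothelial-like cells of IR (53.3 CPM). *Igfbp1* gave 0 UMIs in both libraries, *Igfbpl1* 2 and 0, and *Insrr* 6 and 1.

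The genes most like each member were sought over the 16 points that 8 classes in 2 libraries give, as Pearson's r of log2(CPM + 10) among 6352 genes. The points share libraries and class sizes, so r is a description. *Igf1* was most like *Ang*, *Colec12* and *Rnase4* (r = 0.956, 0.950 and 0.934), *Igf1r* like *G0s2*, *Atp11a* and *Snai1* (0.867, 0.863 and 0.856), and *Igf2r* like *Airn*, *Mageh1* and *Nedd4* (0.900, 0.893 and 0.890), the first of which overlaps it. Among binding proteins, *Igfbp3* was most like *S100a16*, *Fmo2* and *Gja1* (0.961, 0.948 and 0.940), *Igfbp4* like *Cyb5a*, *Rgmb* and *Hdgfrp3* (0.904, 0.871 and 0.856), and *Igfbp5* like *Sdpr*, *Caskin2* and *2900026A02Rik* (0.983, 0.979 and 0.975). *Igfbp6* was most like *Pi16*, *Golph3* and *Fam20c* (0.965, 0.909 and 0.876), and *Igfbp7* like *Parva*, *Sparcl1* and *Sparc* (0.993, 0.992 and 0.992).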

How the data were processed

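The values are counts of UMIs by gene and barcode, which the authors deposited as 1 matrix per condition, made with Cell Ranger (3.1.0 in the matrix header) on mm10; samples within a condition were pooled in it. Here cells with at least 200 detected genes and at most 30% mitochondrial UMIs were kept and classed by 13 marker panels (at least 3 panel genes, 2 for T cell and Schwann panels, and 4 UMIs). Cells whose second panel reached 0.25 of the first were left out as mixed. UMIs were summed per class to CPM with exact Poisson 95% intervals, ratios got exact conditional binomial intervals, thinning used 1000 UMIs per cell, and clusters came from 2000 variable genes without the 9 members (30 components, Leiden resolution 0.8; scanpy 1.11.5, Python 3.11.15, scipy 1.17.1). With 1 library per condition no test across libraries was run. Named genes were all members, the 3 pathway genes with the largest ratio among those with 30 UMIs in each of the macrophage/monocyte-like, fibroblast-like, mural-like and endothelial-like classes, and the 3 genes most like each member. The members, panels and lists were chosen with earlier results of these data known. The UMIs-per-cell scale, the *Mertk*/*Ccr2* and *Cxcl3*/*Spp1* splits, the clusters, the carrier cells and the states without single cells were chosen after seeing the data. The ratio code was tested on simulated data. Alternatives were other cell filters, class rules, scalings and thinning depths.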

Additional observations from a re-analysis of the deposited data

Results flagged for a closer look

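*Igf2r* differed in opposite directions between classes on CPM: log2 IR over sham was -1.35 in fibroblast-like cells, 1.98 in neutrophil-like cells and 1.87 in macrophage/monocyte-like cells. On CPM the macrophage/monocyte-like level stayed below that of B cell-like cells in both libraries. Per cell it was above it in IR, at 0.0803 against 0.0488 UMIs. *Igfbp6* differed in opposite directions between the states of the macrophage/monocyte-like class, with log2 -1.97 in cells with resident markers and 2.64 in cells with recruited markers, and with -1.75 in *Mertk*-only and 2.81 in *Ccr2*-only cells. The lower values rested on few sham cells, since with only cells in clusters of their own class they were -0.09 (-1.04 to 0.82) and -0.67 (-1.58 to 0.23), while the higher ones were 2.64 and 2.82. With 1 library per condition these differences between classes and states were not tested.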

How the results depend on the processing

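No paired analysis was possible because each condition is 1 pooled library in which cells carry no replicate number. Over the planned settings, the 2-fold differences of *Igfbp3* and *Igfbp5* in fibroblast-like cells and of *Igfbp4*, *Igfbp5* and *Igfbp6* in macrophage/monocyte-like cells kept their side in all 9. *Igf1r* in neutrophil-like cells kept it in 4 of 9 (log2 0.55 to 1.67), *Igfbp4* in fibroblast-like cells in 5 (-1.28 to -0.85) and *Igf1* there in 8 (-1.24 to -0.97). *Igfbp3* in macrophage/monocyte-like cells kept it in 6 of 9 (0.18 to 2.51) and *Igf1* in endothelial-like cells in 5 of 8 (-2.55 to -0.76), while *Igf2r* in macrophage/monocyte-like and fibroblast-like cells and *Igfbp5* in mural-like cells each lost it in 1 setting. The *Igf1* lead of fibroblast-like over macrophage/monocyte-like cells in IR was 1.15-fold, but 0.748 with cells over 2500 genes removed and 0.975 with size factors. The 2500-gene limit is set in the methods of the study and was used here only as an alternative. In IR it left 212 of 1654 fibroblast-like and 791 of 2253 macrophage/monocyte-like cells.

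Some counts of set genes moved by over 1.5 times. On UMIs per cell, which was added after seeing the data, the higher and lower counts were 2 and 0 in fibroblast-like, 3 and 1 in mural-like and 2 and 0 in endothelial-like cells, 3 genes held a 4-fold lead in IR, and log2 turned positive for *Igf1* (0.32), *Igf2r* (0.10) and *Igfbp4* (0.42) in fibroblast-like and for *Igfbp5* (0.17) in mural-like cells. With mixed cells kept, 1 gene was higher in macrophage/monocyte-like cells, 1 higher and 2 lower in neutrophil-like, 1 higher in mural-like and 2 lower in endothelial-like cells. With Leiden clusters as classes, 1 was higher and 1 lower in mural-like and 2 lower in endothelial-like cells. With the second-panel limit at 0.1, 1 was higher and 1 lower in neutrophil-like cells, and with the 2500-gene limit 1 was higher there. With the mean of each cell's own CPM, 1 was higher and 1 lower in neutrophil-like, 2 lower in fibroblast-like and 0 lower in endothelial-like cells. A 4-fold lead in sham was held by 1 gene with Leiden classes, own-cell means or size factors. In IR it was held by 2 with at most 10% mitochondrial UMIs (endothelial-like cells then had under 50 cells) or with size factors, and by 0 with mixed cells kept, the limit of 0.1, Leiden classes or called doublets removed. In the pathway list, 8 genes were lower in macrophage/monocyte-like and 7 higher in mural-like cells with no filter on UMIs, and 5 lower in neutrophil-like cells with at least 50. Thinned to 500 UMIs, 2 members had a higher share in IR in endothelial-like cells in place of 4. The causes were not tested, except that the per-cell scale carries the larger UMI totals of IR cells. Depth limits the smaller classes most: 101 endothelial-like and 187 mural-like cells in IR leave *Igf1* there at 5 and 4 UMIs.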
